A study of Homo sapiens with 6 samples.

Results

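Genes of the transforming growth factor β (TGF-β) system were followed, 10 in all, in TGF-β1-stimulated HK2 cells, a line of human proximal tubular epithelial cells, with and without forced expression of SIRT4. They were taken by symbol from the deposited tables: the ligands TGFB1, TGFB2 and TGFB3, and the receptors TGFBR1, TGFBR2 and TGFBR3. The others were LTBP1 and LTBP2, of the latent TGF-β binding protein family, and the modulators PMEPA1 and BAMBI. All 10 were present among the 38100 genes listed, and 9 had enough counts to be among the 17720 genes tested. The rule that names them uses symbols alone, but the genes were chosen with earlier results of these data known.

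The AdCtrl group (n = 3) carried a control adenovirus, an empty vector, and the AdSIRT4 group (n = 3) an adenovirus that expresses SIRT4, a mitochondrial sirtuin. All 6 samples were wild-type HK2 cells stimulated with TGF-β1, and no unstimulated sample was analysed here, so the effect of TGF-β1 itself cannot be read from these values. The sample titles all name the HK2 line, but the cell line field carries a number that rises by sample from HK2 to HK7, and every sample was taken as HK2, an immortalised line. The study's checklist states that n in its experiments in vitro means technical replicates, so the p-values below may measure technical spread alone. Poly(A) RNA was sequenced, and the authors deposited a count and a level per gene length for each gene.

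TGF-β is secreted as a latent complex, which latent TGF-β binding proteins tether to the matrix and which integrins pull open. The active ligand binds the kinase TGFBR2, which recruits and phosphorylates TGFBR1, and TGFBR1 in turn activates SMAD2 and SMAD3. In the kidney tubule this pathway is known for driving fibrosis, and it induces several of its own brakes, among them PMEPA1, SMAD7 and BAMBI. The recombinant TGF-β1 added to the medium is a protein and leaves no reads, so the ligand transcripts below are the cells' own.

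The sequences just upstream of the ligand genes are shown first, as the 3 ligands, alike as proteins, had very different transcript levels. Whether the sequences bear on these levels was not tested. Each is the 100 bases before a transcription start listed by RefSeq (GRCh38.p14), read 5′ to 3′ on the gene's strand, with TATAAA (the TATA box), GGGCGG (the GC box) and CACGTG (an E-box), on either strand, in capitals.
TGFB1, chr19:41353923-41354022, minus strand: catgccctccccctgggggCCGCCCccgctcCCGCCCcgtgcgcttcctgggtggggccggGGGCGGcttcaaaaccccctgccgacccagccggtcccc
TGFB2, chr1:218345236-218345335, plus strand: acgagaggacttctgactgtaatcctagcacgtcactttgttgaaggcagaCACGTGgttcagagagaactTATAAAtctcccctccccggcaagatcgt
TGFB3 start 1, chr14:75983012-75983111, minus strand: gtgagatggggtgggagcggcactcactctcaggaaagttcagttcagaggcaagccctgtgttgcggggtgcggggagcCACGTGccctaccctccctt
TGFB3 start 2, chr14:75981996-75982095, minus strand: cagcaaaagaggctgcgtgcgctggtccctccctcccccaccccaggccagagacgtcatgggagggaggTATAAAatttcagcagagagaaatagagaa

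TGFB1 held 3 GC boxes in this stretch, beginning 81, 69 and 39 bases before the start, and neither of the other motifs. TGFB2 held a TATAAA that began 29 bases and a CACGTG that began 49 bases before its start, and no GC box. Of the TGFB3 starts, the outer held a CACGTG at 20 bases and the inner a TATAAA at 30 bases. Among the 35116 upstream windows of this length that RefSeq's starts give for 27305 genes, 31.3% held a GC box, 4.99% a TATAAA and 3.43% a CACGTG. A match is a description of the letters and not evidence of binding.

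For PMEPA1 and BAMBI, the members with the largest differences between the groups, the letters searched were CAGAC, which reads as GTCTG when it lies on the opposite strand, the core that SMAD3 and SMAD4 are known to bind. RefSeq lists 4 starts for PMEPA1 and 1 for BAMBI. Each match within 250 bases upstream of a start is shown with 10 bases on either side and the 5 matching letters in capitals.
PMEPA1 start 2, chr20:57710678-57710702, minus strand: ccttgggcagCAGACaatgggtgtg
PMEPA1 start 4, chr20:57690743-57690767, minus strand: ggctccacccCAGACttccggcagg
BAMBI first match, chr10:28677322-28677346, plus strand: ccgggcgcccCAGACgccggcgccg
BAMBI second match, chr10:28677371-28677395, plus strand: cagcgctcgcGTCTGggcccgcccc

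These matches began 115 and 71 bases before the respective PMEPA1 starts and 189 and 140 bases before the BAMBI start. The motif was common. It was present in 38% of all 250-base windows, and in 12 of the 24 windows of the 10 genes. Those 12 windows belonged to 6 genes, TGFB2, TGFB3, TGFBR1, LTBP1, PMEPA1 and BAMBI. In TGFB2 a copy 53 bases before the start shared 1 base with the CACGTG.

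Total counts lay between 41537353 and 85684748 per sample. SIRT4 itself had 31, 47 and 57 counts in AdCtrl replicates 1, 2 and 3, and 1996, 7995 and 6827 in the AdSIRT4 samples (edgeR log2 fold change 6.36 ± 0.357 SE, adjusted p = 0.00801), and reads of the vector cannot be told apart from those of the cell's own gene. Of 5 epithelial markers 4 were above 1 FPKM (fragments per kilobase of gene and per unit of sequencing depth, a level per gene length) and their summed level was 697 to 737 in AdCtrl and 667 to 923 in AdSIRT4, but CDH1 (E-cadherin) did not exceed 0.155. Of 7 proximal tubule markers only GGT1 was above 1 FPKM, and LRP2, CUBN, AQP1 and ANPEP were near 0, so the labelled cell type was epithelial by keratins but lacked most proximal tubule transcripts. Of 5 fibroblast markers 2 were above 1 FPKM, LUM (4.76 to 6.70 over all samples) and COL1A1 (2.69 to 4.20). The fibroblast markers summed to 8.91 to 9.93 FPKM in AdCtrl and 8.66 to 9.52 in AdSIRT4, with COL3A1 at 0 throughout. Endothelial markers summed to at most 0.0678 FPKM, and leukocyte markers to 17.0 to 19.2 in AdCtrl and 18.9 to 22.2 in AdSIRT4, nearly all from CD68, a lysosomal protein, with PTPRC at most 0.0186 and CD3E at 0. In bulk samples fewer cells of a type and less RNA per cell cannot be told apart.

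One library stood apart. AdSIRT4 replicate 1 differed from replicates 2 and 3 by gene length: its median log2 ratio to their mean, in CPM (counts scaled to the size of the library), ran from 0.64 in the shortest of 10 length classes to -0.73 in the longest, with 1772 genes in each class. The TGF-β genes are of unequal length, from about 1.94 kb for BAMBI to 9.55 kb for LTBP2 as the deposited tables imply. In that library BAMBI was 0.72 above the other AdSIRT4 samples on this log2 scale and LTBP2 0.97 below them (-0.97), against medians of 0.30 and -0.73 for genes in their length classes. This library also had the lowest SIRT4 of its group, 51.2 CPM against 92.7 and 84.0 in replicates 2 and 3. Differences between the groups are therefore given below with and without this library. Leaving it out also removes the AdSIRT4 sample with the least SIRT4.

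**Figure D1:**
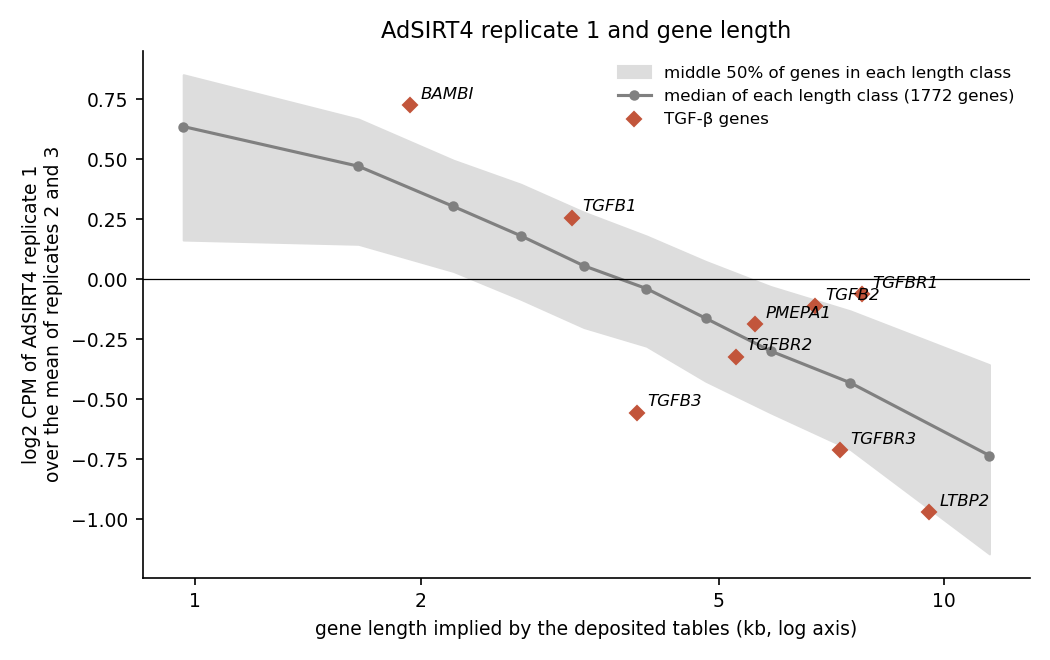
Log2 ratio of CPM in AdSIRT4 replicate 1 to the mean of AdSIRT4 replicates 2 and 3 (vertical axis) against gene length in kb (log axis), with the median (line) and middle 50% (band) of all genes in each length class and the 9 tested TGF-β genes as diamonds. BAMBI, the shortest, sits at 0.72, and LTBP2, the longest, at -0.97.

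In the edgeR test on all 6 samples, no TGF-β gene passed the threshold for a difference between the groups. After Benjamini-Hochberg adjustment over all genes tested, 0 of 9 were below 0.05 (edgeR, background 0.0113% of genes), and 1 of 9, PMEPA1, had an unadjusted p below 0.05 (background 7.93%). By DESeq2 1 of 9, again PMEPA1, passed after adjustment (background 1.16%). Without AdSIRT4 replicate 1, 2 of 10 genes passed, PMEPA1 higher and BAMBI lower (background 6.71%). With limma voom, which gives each sample a weight, PMEPA1 and BAMBI also passed, 2 of 9 (background 8.94%). As the genes were chosen with earlier results known, the background shares beside their counts are no test of enrichment. The median log2 fold change of the 9 genes was -0.014, against 0.021 for all genes tested. Of the 9, 3 were above and 6 below 0.

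**Figure D2:**
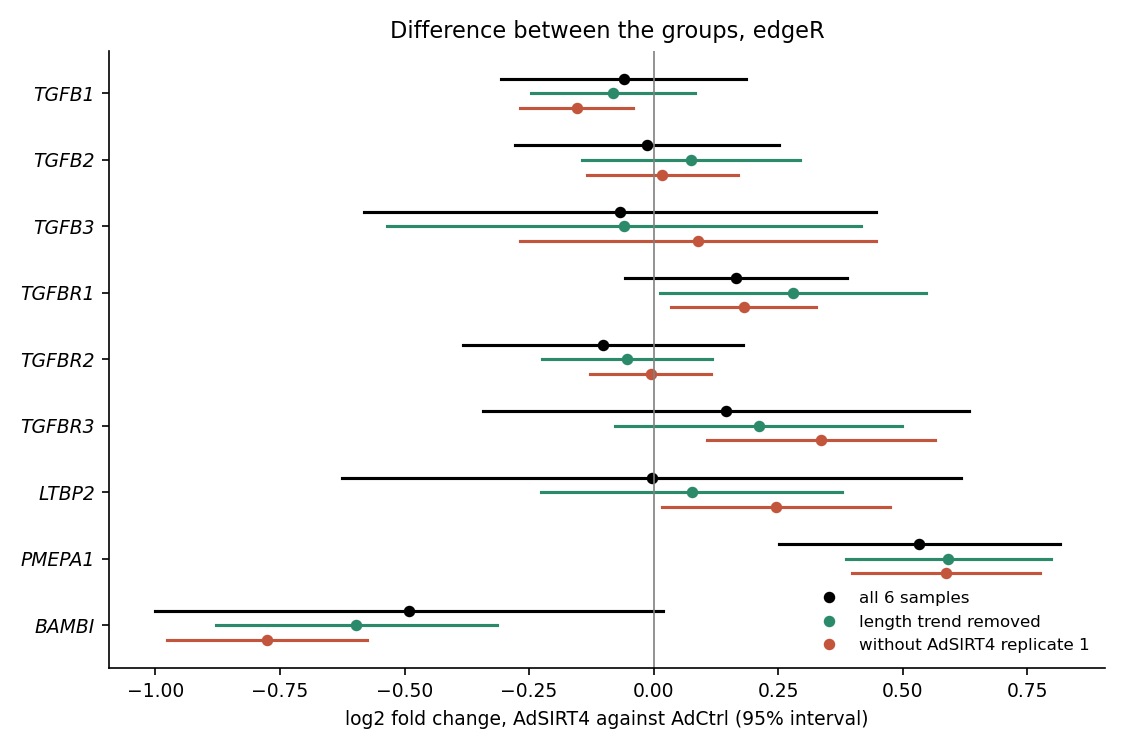
Log2 fold change of AdSIRT4 against AdCtrl for the 9 tested genes (horizontal axis) with the 95% interval from edgeR, from all 6 samples (black), with each library's length trend removed (green), and without AdSIRT4 replicate 1 (red). PMEPA1 lies above 0 in each fit, from 0.53 to 0.59, and the BAMBI interval reaches 0.019 with all samples.

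The genes spanned a wide range of levels, which can be compared between genes only per length. TGFB2 had the highest mean level over the 6 samples at 54.5 FPKM (range 47.8 to 63.3), followed by TGFBR2 at 33.9 (26.1 to 36.1) and TGFB1 at 21.3 (19.4 to 22.4). PMEPA1 was next at 15.2 (12.2 to 21.3), then BAMBI at 8.81 (5.86 to 11.1), LTBP2 at 8.17 (4.63 to 11.05) and TGFBR1 at 6.18 (5.60 to 6.87). TGFB3 at 0.907 (0.612 to 1.06) and TGFBR3 at 0.858 (0.570 to 1.12) were expressed at low level, and LTBP1 at 0.0179 was close to 0. The ranges over samples overlapped between TGFB1 and PMEPA1, between BAMBI and LTBP2, between LTBP2 and TGFBR1, and between TGFB3 and TGFBR3, so these neighbours were not separated. Among genes with a mean of at least 1 FPKM, TGFB2 stood at the 91.2 percentile, TGFBR2 at 84.9 and TGFBR1 at 38.1.

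**Figure D3:**
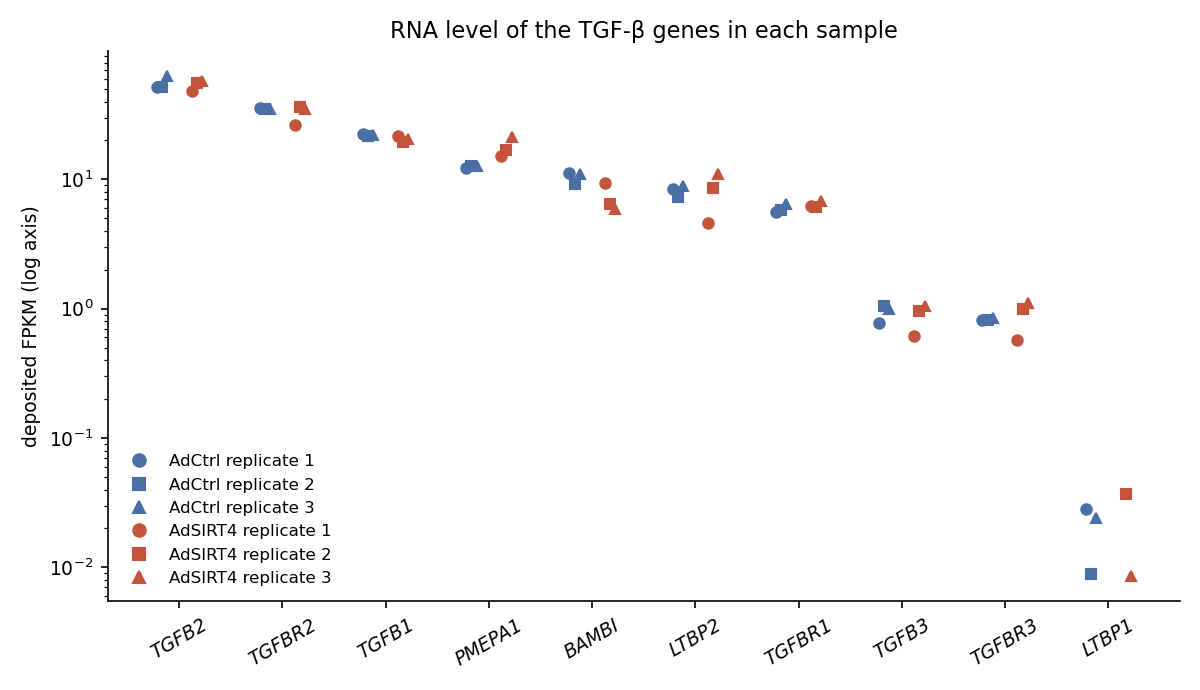
Deposited FPKM (log axis) of each TGF-β gene in each sample, ordered by mean level, AdCtrl in blue and AdSIRT4 in red with a marker per replicate. TGFB2 leads at 47.8 to 63.3 and LTBP1 ends the order, with AdSIRT4 replicate 1 at 0 and so not drawn.

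Among the ligands, TGFB1 encodes the isoform that was also added to the medium and lies at chr19:41330323-41353922 on the minus strand. Its CPM were 70.8, 70.3 and 66.8 in AdCtrl replicates 1 to 3 and 74.7, 61.2 and 63.8 in AdSIRT4. The means were 69.3 ± 2.18 and 66.5 ± 7.15 (SD over 3 samples), and the AdSIRT4 samples fell on both sides of the AdCtrl range. The log2 fold change was -0.06 ± 0.104 (SE, 95% interval -0.31 to 0.19, edgeR adjusted p = 0.860). Without AdSIRT4 replicate 1 it was -0.15 (adjusted p = 0.0972).

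TGFB2, at chr1:218345336-218444619 on the plus strand, encodes the isoform that depends most on the coreceptor betaglycan for binding. Its CPM were 345.7, 354.0 and 407.4 in AdCtrl and 347.0, 368.9 and 380.4 in AdSIRT4, and all 3 AdSIRT4 values lay inside the AdCtrl range. The log2 fold change was -0.014 ± 0.112 (95% interval -0.28 to 0.25, edgeR adjusted p = 0.968), so a difference of more than 0.28 in either direction on this scale lay outside the interval. Without AdSIRT4 replicate 1 it was 0.017 (adjusted p = 0.909). The overlapping transcripts TGFB2-AS1 and TGFB2-OT1 had 0.0978% and 0.0176% as many counts as TGFB2, and the library preparation did not mark strand.

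TGFB3, at chr14:75958097-75983011 on the minus strand, was the scarcest ligand. The 3 AdCtrl samples had 2.98, 4.21 and 3.68 CPM and the 3 AdSIRT4 samples 2.59, 3.68 and 4.04. The groups overlapped, and the log2 fold change of -0.067 ± 0.217 had a 95% interval of -0.58 to 0.45 (edgeR adjusted p = 0.921). Without AdSIRT4 replicate 1 the sign turned, to 0.089 (adjusted p = 0.782).

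The make-up of the ligand transcripts was similar in both groups. TGFB2 contributed 69.1, 69.4 and 73.4% of the summed ligand FPKM in AdCtrl and 68.1, 73.1 and 72.8% in AdSIRT4 (means 70.6 ± 2.40 and 71.3 ± 2.82%, SD, n = 3). TGFB1 contributed 28.2 ± 2.39 and 27.5 ± 3.07%, and TGFB3 1.20 ± 0.195 and 1.16 ± 0.250%. The 2-sided exact permutation p was 1 for TGFB1 and TGFB2 and 0.9 for TGFB3, all 1 after adjustment over 4 comparisons of composition, and 3 samples against 3 cannot give a p below 0.1. Without AdSIRT4 replicate 1 the difference in share went from 0.719 to 2.35 percentage points for TGFB2, from -0.673 to -2.44 for TGFB1 and from -0.0459 to 0.0964 for TGFB3, with no test.

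**Figure D4:**
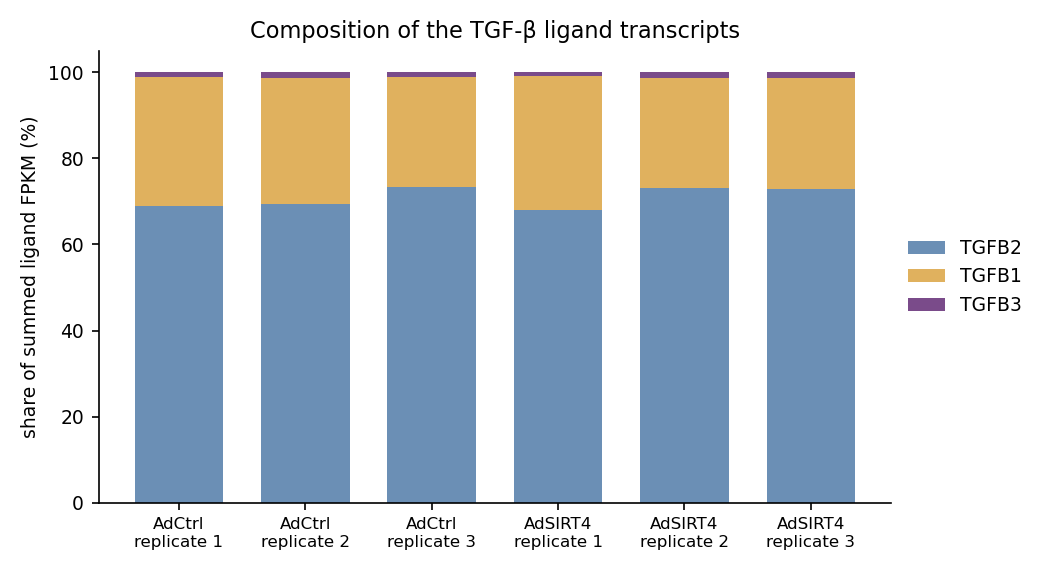
Share of TGFB1, TGFB2 and TGFB3 in their summed FPKM (%, stacked bars) in each of the 6 samples. TGFB2 takes 68.1 to 73.4% in every sample, and the groups overlap for each ligand.

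Of the receptors, TGFBR2 (chr3:30606356-30694142, plus strand) encodes the kinase that binds the ligand first. It had 188.5, 188.8 and 176.7 CPM in AdCtrl and 147.5, 188.5 and 180.4 in AdSIRT4. The low value belonged to AdSIRT4 replicate 1, and the other AdSIRT4 samples lay within the AdCtrl range. The log2 fold change was -0.10 ± 0.119 (95% interval -0.38 to 0.18, edgeR adjusted p = 0.808), and -0.0063 without that library (adjusted p = 0.961).

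TGFBR1 (chr9:99103647-99154192, plus strand), the kinase that phosphorylates SMAD2 and SMAD3, had 42.0, 46.3 and 48.5 CPM in AdCtrl and 49.7, 50.7 and 53.0 in AdSIRT4. All AdSIRT4 samples were above all AdCtrl samples in CPM, as they were for PMEPA1, so 2 of the 9 tested genes had groups that did not overlap (background 19.4%). In FPKM the TGFBR1 groups did overlap. The means were 45.6 ± 3.32 and 51.1 ± 1.69 CPM, and the log2 fold change of 0.16 ± 0.0944 did not pass (95% interval -0.058 to 0.39, edgeR adjusted p = 0.705). It was 0.18 without AdSIRT4 replicate 1 (adjusted p = 0.124) and 0.28 with the length trend removed (adjusted p = 0.341).

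The ratio of TGFBR2 to TGFBR1, taken on FPKM because the kinases work as a pair, was 6.41, 6.00 and 5.44 in AdCtrl and 4.21, 5.86 and 5.11 in AdSIRT4. AdSIRT4 replicate 1 was the lowest, and the groups overlapped. On the log2 scale the means were 2.57 ± 0.120 and 2.33 ± 0.239, a difference of -0.24 (exact permutation p = 0.2, 0.8 after adjustment over the 4 comparisons). It was -0.12 without AdSIRT4 replicate 1, with no test.

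TGFBR3 (chr1:91680343-91906002, minus strand) encodes betaglycan, which presents ligand to TGFBR2 and has no kinase. Its CPM were 5.88, 6.05 and 5.84 in AdCtrl and 4.54, 7.14 and 7.86 in AdSIRT4. The AdCtrl samples were close together, while AdSIRT4 replicate 1 lay below them and replicates 2 and 3 above. With all samples the log2 fold change was 0.15 ± 0.206 (95% interval -0.34 to 0.63, edgeR adjusted p = 0.837), and without AdSIRT4 replicate 1 it was 0.34 (adjusted p = 0.0784).

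The LTBP family members differed from each other by level. LTBP1 (chr2:32946953-33399509, plus strand), which tethers latent TGF-β to the matrix, had 13, 3 and 9 counts in AdCtrl and 0, 23 and 6 in AdSIRT4. These counts were too few for a test, and no fold change is given. The count of 0 allows up to 3 counts in that library, by counting error alone.

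LTBP2 (chr14:74498183-74612237, minus strand) is a fibrillin-like protein of the same family that does not bind latent TGF-β. Its CPM were 79.9, 71.6 and 81.7 in AdCtrl and 47.2, 81.3 and 103.8 in AdSIRT4. The means were almost equal, 77.7 ± 5.41 and 77.4 ± 28.5, but the AdSIRT4 samples ran from far below to above the AdCtrl range, with replicate 1 the lowest. The log2 fold change was -0.0042 ± 0.262 (95% interval -0.62 to 0.62, edgeR adjusted p = 0.996), the widest interval of the 9 genes, and 0.25 without AdSIRT4 replicate 1 (adjusted p = 0.181). The part of gene length in this spread was not tested for single genes.

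LTBP3 and LTBP4, relatives that also join latent TGF-β and were singled out from the pathway list below after their values had been seen, were far more abundant than LTBP1. Their levels were 30.6 ± 0.407 and 39.0 ± 2.35 FPKM in AdCtrl and 32.97 ± 1.17 and 36.4 ± 4.76 FPKM in AdSIRT4, and neither differed between groups past the threshold (edgeR adjusted p = 0.731 for LTBP3 and 0.845 for LTBP4, and 0.284 and 0.932 without AdSIRT4 replicate 1).

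PMEPA1 (chr20:57648396-57711472, minus strand), a TGF-β-induced membrane protein that holds SMAD2 and SMAD3 away from the receptor, differed by 0.53 on the log2 scale, and with BAMBI (-0.49) was 1 of the 2 genes furthest from 0. Which of the 2 was further depended on the fit, as BAMBI was with limma voom (-0.73 against 0.50), on log2(FPKM + 1) (-0.50 against 0.46) and with the length trend removed (-0.60 against 0.59). PMEPA1 had 68.2, 72.1 and 68.4 CPM in AdCtrl and 92.2, 92.8 and 117.0 in AdSIRT4. Every AdSIRT4 sample was above every AdCtrl sample in CPM and in FPKM, and the AdSIRT4 samples were themselves more spread. The group means were 69.6 ± 2.21 CPM for AdCtrl and 100.7 ± 14.2 for AdSIRT4.

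The log2 fold change of PMEPA1 was 0.53 ± 0.119 (95% interval 0.25 to 0.81). Its unadjusted edgeR p was 0.00286 and the adjusted p 0.494, and the exact permutation p was 0.1, the smallest that 3 samples against 3 allow. The adjusted p was 0.0153 by DESeq2, 0.00774 with limma voom and 0.00676 without AdSIRT4 replicate 1, where the log2 fold change was 0.59. Over 18 alternatives the adjusted p lay between 0.00676 and 0.971, and it was below 0.05 in those 3. The overlapping antisense gene NKILA had 3.04% as many counts as PMEPA1 and, with no strand marked, reads of the pair cannot be fully told apart.

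BAMBI (chr10:28677521-28682932, plus strand), a pseudoreceptor that resembles TGFBR1 but lacks the kinase, lay in the opposite direction. Its CPM were 21.5, 18.1 and 20.3 in AdCtrl and 19.4, 12.3 and 11.1 in AdSIRT4. Replicates 2 and 3 of AdSIRT4 were below all AdCtrl samples, and replicate 1 lay among them. The means were 19.97 ± 1.69 and 14.3 ± 4.48 CPM, and the log2-scale difference of -0.49 ± 0.216 did not pass (95% interval -1.0 to 0.019, unadjusted p = 0.0570, edgeR adjusted p = 0.640).

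The BAMBI call turned on AdSIRT4 replicate 1. Without that library it stood at -0.78 on the log2 scale, and the adjusted edgeR p was 0.00133, and limma voom gave -0.73 with an adjusted p of 0.00279. DESeq2 on all samples gave an adjusted p of 0.485. With the replicate number as a block, the unadjusted p was 0.0198, so that 2 of 9 genes had an unadjusted p below 0.05 (background 7.2%) in place of 1, and 0 of 9 passed after adjustment (background 0.00564%). With the length trend removed BAMBI had -0.60 and an unadjusted p of 0.00129 (edgeR adjusted p = 0.133). Its adjusted p lay between 0.00133 and 0.971 over 18 alternatives and was below 0.05 in 2.

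**Figure D5:**
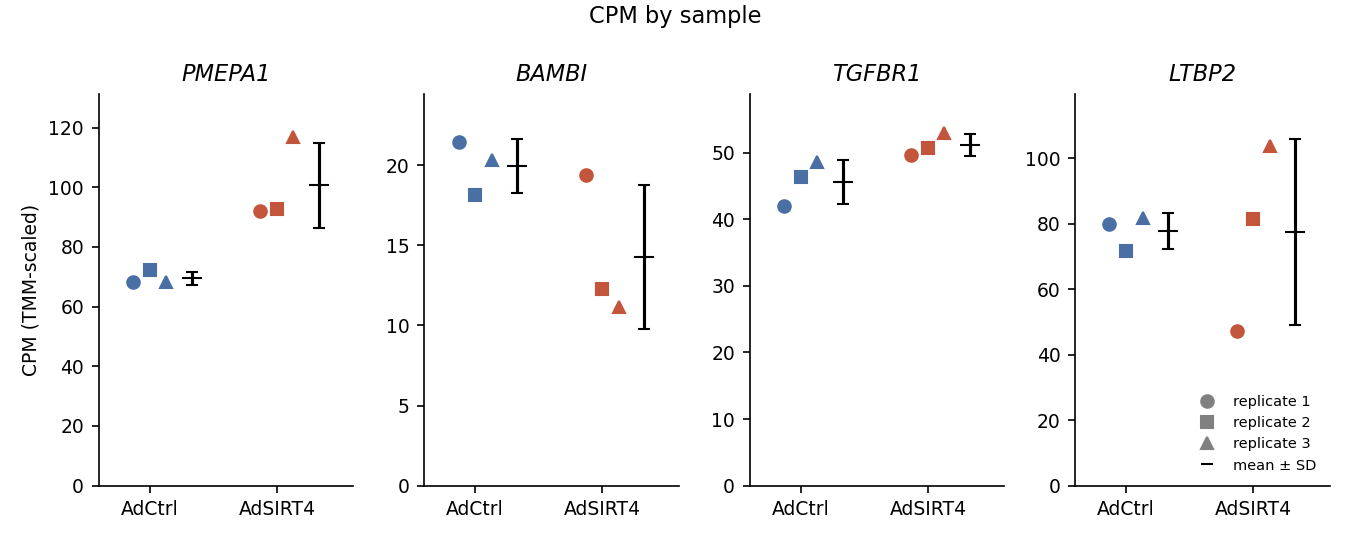
CPM of PMEPA1, BAMBI, TGFBR1 and LTBP2 in each sample (vertical axes from 0), AdCtrl in blue and AdSIRT4 in red, a marker per replicate, with mean ± SD (n = 3) in black. AdSIRT4 replicate 1 (circle) is the highest of its group for BAMBI at 19.4 and the lowest for LTBP2 at 47.2.

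The rest of the pathway was read from a list of 58 genes, of which 56 were tested. The list was written with earlier results of these data known. It holds CCN2, which the study had singled out from these samples. The background shares beside its counts, here and by role below, are therefore no test of enrichment. None passed after adjustment, and 9 had an unadjusted edgeR p below 0.05, 8 higher (background 4.43%) and 1 lower (background 3.5%) in AdSIRT4. By DESeq2 4 passed after adjustment, among them SMAD7, ITGB8 and CCN2 (background 1.16%), and without AdSIRT4 replicate 1, 12 did (background 6.71%). The median log2 fold change was 0.012 against 0.021 for all genes tested, with 29 above and 27 below 0.

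By role, against a background of 7.93% of genes with an unadjusted p below 0.05 (4.43% higher and 3.5% lower), the counts were as follows. Of 9 genes for latency, anchoring and processing, 0 had such a p, with 4 above and 5 below 0. Of 4 tested extracellular binding proteins it was likewise 0. Among 10 tested genes of activation it was 3, all higher, among 18 receptor partners 2, among 8 signal carriers and corepressors 1, and among 7 targets 3, all higher.

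In the activation group, ITGB8, the integrin subunit of a complex that releases latent TGF-β, was at 236.8 ± 7.62 CPM in AdCtrl and 378.4 ± 35.7 in AdSIRT4, a log2 fold change of 0.68 ± 0.111 (edgeR unadjusted p = 0.000457, adjusted p = 0.307). ITGB6, the partner in another such complex, was at 100.7 ± 3.32 and 120.7 ± 3.49 CPM, a log2 fold change of 0.26 (adjusted p = 0.558). THBS1, a matrix glycoprotein that can activate latent TGF-β, was at 434.5 ± 34.7 and 553.7 ± 57.5 CPM, a log2 fold change of 0.35 (adjusted p = 0.600). For each of them all AdSIRT4 samples were above all AdCtrl samples in CPM (background 9.66%), while in FPKM the THBS1 groups overlapped. In the same group ITGB5 and MMP14 had all AdSIRT4 samples below all AdCtrl samples in CPM (background 9.77%). Their log2 fold changes were -0.093 and -0.081. The adjusted p without AdSIRT4 replicate 1 was 0.000126 for ITGB8, 0.0133 for ITGB6 and 0.0252 for THBS1.

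Of the receptor partners, SMAD7, the inhibitory SMAD that takes ubiquitin ligases to TGFBR1, was at 25.1 ± 1.02 CPM in AdCtrl and 42.1 ± 1.72 in AdSIRT4. Its log2 fold change was 0.75 ± 0.0907 (edgeR adjusted p = 0.204), and its adjusted p was 4.03e-12 by DESeq2, 0.000309 without AdSIRT4 replicate 1 and 0.0215 with the length trend removed, but 0.0914 when that fit also held the replicate block. ENG, the coreceptor endoglin, was lower in all AdSIRT4 samples (background 9.77%), at 11.9 ± 1.33 CPM in AdCtrl against 8.77 ± 1.29 in AdSIRT4. Its log2 fold change was -0.44 (edgeR adjusted p = 0.584, and 0.0784 without AdSIRT4 replicate 1). In the group of signal carriers and corepressors, SMAD6, the related inhibitory SMAD, was at 23.4 ± 0.792 and 27.9 ± 2.66 CPM, a log2 fold change of 0.25 (edgeR adjusted p = 0.621). With the replicate number as a block, its unadjusted p was 0.0778, and the adjusted p was 0.0133 with limma voom and 0.0179 without AdSIRT4 replicate 1.

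Among the targets, CCN2, a matricellular protein of fibrosis, was at 349.7 ± 2.84 CPM in AdCtrl and 581.2 ± 112 in AdSIRT4, a log2 fold change of 0.73 (edgeR adjusted p = 0.494). Its adjusted p was 0.00229 by DESeq2, 0.000736 with limma voom and 0.000282 without AdSIRT4 replicate 1, where the log2 fold change was 0.56. KLF10, a TGF-β early response factor, was at 55.7 ± 1.54 and 68.7 ± 6.69 CPM, a log2 fold change of 0.30. Its edgeR adjusted p was 0.563, and 0.0285 without AdSIRT4 replicate 1. The adjusted p of KLF10 was 0.219 by DESeq2 and below 0.05 in 1 of 18 alternatives. The other targets had an unadjusted p above 0.05 with all samples. COL1A1, a fibrillar collagen chain, was at 25.8 CPM in AdCtrl and 21.6 in AdSIRT4 (log2 fold change -0.25), and TGFBI, JUNB and FN1 had log2 fold changes of 0.056, 0.066 and 0.057. Without AdSIRT4 replicate 1 FN1, fibronectin, had 0.34 (edgeR adjusted p = 0.0479). The adjusted p of FN1 was below 0.05 in only that 1 of 18 alternatives, and was 0.961 by DESeq2 and 0.175 with limma voom. With single samples left out its log2 fold change ran from -0.23 to 0.34. PMEPA1 and SMAD7, both feedback inhibitors that TGF-β induces, were on the higher side with all samples, as were CCN2 and KLF10 but not COL1A1, and BAMBI, which TGF-β also induces, was on the lower side. Whether these differences differ from each other was not tested.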

How the data were processed

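Total RNA of the 6 samples was poly(A)-selected, fragmented and sequenced with no step that marks strand. The submitters' processing notes name fastp 0.21.0, HISAT2 2.1.0, StringTie 2.1.5, DESeq2 1.30.1 and the hg38 build. The authors deposited raw counts per gene and a second table that was read as FPKM. Its unit is not named, and was inferred: once the libraries were put on one scale, the length implied by the 2 tables was equal within 5% in all samples for 11273 of 14692 genes with at least 20 counts per sample. No sample column was left unused.

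Differences between AdSIRT4 and AdCtrl were tested in edgeR 4.0.16 from the counts (R 4.3.3; filterByExpr with a minimum count of 10, TMM, robust quasi-likelihood test) and Benjamini-Hochberg adjustment over 17720 genes at 0.05. CPM were scaled with TMM. Alternatives used DESeq2 1.42.0, limma 3.58.1 on log2(FPKM + 1) or voom with sample weights, other filters, RLE size factors, an offset for each library's length trend and omission of each sample. Single values were compared with 2-sided exact permutation tests. Tables and figures used Python 3.11.15, numpy 2.4.6, pandas 2.3.3, scipy 1.17.1 and matplotlib 3.10.9.

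Total counts in AdCtrl replicates 1, 2 and 3 were 53677241, 42102861 and 50190728, and in AdSIRT4 41537353, 85684748 and 80040053. No replicate was a copy of another. Deviations from the group means correlated across genes by 0.178, 0.159 and 0.176 between samples of the same replicate number and by -0.188 to 0.030 otherwise. The replicate number in the labels was therefore taken as a possible pairing and used as a block in alternative fits. The main edgeR test and the permutation tests did not use it.

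The 10 genes and the list of 58 pathway genes, written from general knowledge, were chosen with earlier results of these data known. All 10 genes are named, and of the list every gene with an unadjusted p under 0.05, apart from 1 that is not reported here. LTBP3, LTBP4, ITGB5 and MMP14, which are on the list, and the other targets were named after their values were seen. Upstream sequences and gene positions came from RefSeq tables (GRCh38.p14).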

Additional observations from a re-analysis of the deposited data

How the results depend on the processing

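After adjustment 0 of the 9 TGF-β genes passed, against 1 with DESeq2 and 2 with limma voom, and between 0 and 2 when single samples were left out. At an unadjusted p below 0.05 the count was 1. It was 2 with DESeq2 (background 9.24%), with all genes of at least 1 count (5.52%), with the replicate block (7.2%), with limma on log2(FPKM + 1) (7.95%), with a pseudocount of 0.1 (7.31%), among genes whose mean FPKM reached 1 (7.57%) and with the length trend removed plus the block (13.9%). It was 3 for limma with the block (8.33%) and with the length trend removed (14%), 5 with voom (27.5%), and 1 to 6 with single samples left out, 6 without AdSIRT4 replicate 1 (24.3%). Beside BAMBI in edgeR, the block moved the unadjusted p of TGFBR1 across 0.05, from 0.212 to 0.0224 in limma on log2(FPKM + 1) and from 0.0421 to 0.0655 in edgeR with the length trend removed. It changed no other call of the 9 genes in these 3 fits. Of the 56 pathway genes, 4 passed with DESeq2 (1.16%), 1 with the length trend removed (0.0677%) but 0 with the block added, 9 with voom (8.94%) and 0 to 12 with samples left out (up to 6.71%). Unadjusted counts were 9 in the reported test (background 7.93%), 14 with the length trend removed (14%, and 13.9% with the block) and 21 with voom (27.5%). With samples left out they ran from 4 to 22. They were 4 without AdCtrl replicate 1 (3.7%), 5 without AdCtrl replicate 2 (4.6%) and 22 without AdSIRT4 replicate 1 (24.3%). The log2 fold change of PMEPA1 passed with DESeq2 (0.53) and voom (0.50), and that of BAMBI with voom (-0.73). Signs turned for TGFB2 with the length trend removed (0.076, and 0.074 with the block) and voom (0.023), for LTBP2 under the same fits (0.076, 0.062 and 0.14), and with voom for TGFB3 (0.084) and TGFBR2 (0.0033), none of which passed. The causes were not tested. With single samples left out the log2 fold change ran from -0.15 to 0.0026 for TGFB1, -0.059 to 0.062 for TGFB2, -0.20 to 0.089 for TGFB3, 0.11 to 0.21 for TGFBR1, -0.17 to -0.0063 for TGFBR2, -0.0096 to 0.34 for TGFBR3, -0.27 to 0.25 for LTBP2, 0.41 to 0.59 for PMEPA1 and -0.78 to -0.34 for BAMBI. The difference in share ran from -2.44 to 0.258 percentage points for TGFB1, -0.160 to 2.35 for TGFB2 and -0.136 to 0.0964 for TGFB3, and the log2 receptor ratio from -0.36 to -0.12. Depth limits LTBP1, and TGFB3 and TGFBR3 less so.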
